A study of Mus musculus with 6 samples.

Results

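The neutrophil primary granule genes described here are Mpo, Elane, Prtn3, Ctsg, Ms4a3 and Fcnb, 6 of the 26027 genes in the deposited count table. They were taken by symbol, each symbol named 1 row of the table, and all 6 passed the filter on low counts. RNA was sequenced from Lin-/cKit+/eYFP+ bone marrow cells, a sorted population of immature blood progenitors, 3 libraries being of the genotype Srsf2 P95H/+ and 3 of Srsf2 +/+ (wild type). All mice were on the C57BL/6 background, were treated with tamoxifen, and carried hScl-CreERT, a tamoxifen-inducible Cre recombinase driven by regulatory sequence of Scl, and R26eYFP, a reporter of recombination. Both genotypes were therefore sorted for recombined cells and differed by 1 mutant allele of Srsf2, which encodes an SR splicing factor. The P95H/+ libraries came from mice of 32 weeks, replicates 1 and 2 female and replicate 3 male. In wild type, replicate 1 was a female aged 54 weeks and replicates 2 and 3 were males aged 32 weeks. The labels do not say whether each library is a separate mouse. If some are not, p-values cover a spread among libraries that may be technical.

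Primary (azurophil) granules are made at the promyelocyte stage of neutrophil formation, before the secondary granules that carry lactoferrin. Their proteins are stored in active form and act when the mature cell takes up or meets microbes. Their transcripts are abundant while the granules are being filled and decline as the cell matures, so their level in sorted progenitors follows how many cells are at this stage and how much of the RNA each cell makes. In bulk libraries fewer such cells and less RNA per cell cannot be told apart.

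The members fall into 3 kinds. Mpo encodes myeloperoxidase, a haem enzyme that makes hypochlorous acid. Elane, Prtn3 and Ctsg encode the serine proteases neutrophil elastase, proteinase 3 and cathepsin G. Ms4a3 encodes a 4-span membrane protein of granulocyte and monocyte progenitors, and Fcnb encodes ficolin B, a lectin that recognises microbial sugars. On mm10, in GENCODE M21, all are protein coding. Mpo (ENSMUSG00000009350) lies on chromosome 11 at 87793581 to 87804413, plus strand. Prtn3 (ENSMUSG00000057729) at 79874476 to 79883174 and Elane (ENSMUSG00000020125) at 79886247 to 79888215 lie side by side on the plus strand of chromosome 10, with 3073 bases between them. Ctsg (ENSMUSG00000040314) lies on chromosome 14 at 56099881 to 56102574, Ms4a3 (ENSMUSG00000024681) on chromosome 19 at 11629496 to 11640851, and Fcnb (ENSMUSG00000026835) on chromosome 2 at 28076378 to 28084885, all 3 on the minus strand.

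The sequence before the start of the myeloperoxidase gene and of the 3 protease genes is shown because their products are the classical cargo of the granule and because a motif was found in each. Windows of 250 bases before the start annotated by RefSeq on GRCm38.p6 were searched. They are printed 5′ to 3′ on the strand of the gene up to the first exon in GENCODE M21, which leaves out 203 bases of Mpo, 65 of Elane and 53 of Prtn3. The window of Prtn3 lies within the annotated span of the gene, outside its exons as printed. Capitals mark GAGGAA, a form of the core site of the myeloid factor PU.1, searched on both strands.
Mpo, chr11:87793534-87793580, plus strand: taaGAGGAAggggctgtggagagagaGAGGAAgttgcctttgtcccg
Elane, chr10:79886062-79886246, plus strand: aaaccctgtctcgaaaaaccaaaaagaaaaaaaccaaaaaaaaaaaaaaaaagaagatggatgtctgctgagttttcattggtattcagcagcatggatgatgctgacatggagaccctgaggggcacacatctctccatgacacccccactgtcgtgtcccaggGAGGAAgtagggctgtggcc
Prtn3, chr10:79879417-79879613, plus strand: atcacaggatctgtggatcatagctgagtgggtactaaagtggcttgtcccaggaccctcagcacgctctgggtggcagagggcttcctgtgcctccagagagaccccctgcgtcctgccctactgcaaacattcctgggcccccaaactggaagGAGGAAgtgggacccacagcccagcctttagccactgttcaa
Ctsg, chr14:56102575-56102824, minus strand: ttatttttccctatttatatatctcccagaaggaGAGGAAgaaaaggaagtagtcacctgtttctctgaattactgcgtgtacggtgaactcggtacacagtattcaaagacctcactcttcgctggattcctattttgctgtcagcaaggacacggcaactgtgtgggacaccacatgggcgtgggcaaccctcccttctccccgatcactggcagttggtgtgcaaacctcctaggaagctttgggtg
Counted back from the RefSeq start, the motif began at -247 and -224 in Mpo, at -85 in Elane, at -95 in Prtn3 and at -216 in Ctsg. It was not in the windows of Ms4a3 and Fcnb. Of 32851 promoter windows of this length, 23.3% held it on either strand, against 4 of the 6 members. The letters TTNNGNAA, a loose form of the C/EBP site, were in the windows of Ms4a3 and Fcnb and in 36.8% of all windows. TGTGGT, a RUNX site, was in that of Ctsg and in 14.0% of all. AACNG, a MYB site, was in 5 of 6 members and in 74.2% of all, and it was not in that of Ms4a3. In Mpo (-165) and Elane (-50 and -20) it was only in the bases left out of the printed sequence. The 4 motifs were counted each on its own, and matches of different motifs may share bases. These matches are a description of letters, and the deposited counts do not show binding.

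Library totals ran from 10747941 counts in P95H/+ replicate 3 to 23010510 in wild-type replicate 1, and the members held between 321 counts (Fcnb, wild-type replicate 1) and 113040 counts (Mpo, P95H/+ replicate 1). The replicate 3 libraries of P95H/+ and wild type differed from the rest in how counts follow GC content. Against the mean of the other 4 libraries, genes whose longest transcript had at most 40% GC had a median log2 difference of -1.13 in P95H/+ and -0.88 in wild type, and genes of at least 55% had one of 0.76 in P95H/+ and 0.47 in wild type. Kit, used in the sort, stood at 475.7, 531.3 and 548.4 CPM (the count scaled to the library total) in P95H/+ and 520.5, 482.4 and 532.2 CPM in wild type. Cd3e, of T cells, was at 0.35 CPM or less in all 6 libraries. Other B and T cell markers were higher, with Lck up to 8.13 CPM (wild-type replicate 1), Cd79b up to 34.2 CPM (wild-type replicate 3) and Igkc up to 92.2 CPM (P95H/+ replicate 1). Srsf2 stood at 342.2, 336.0 and 315.1 CPM in P95H/+ and 323.8, 330.6 and 343.1 CPM in wild type, which does not show the mutant base, since reads are summed over the gene.

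Primary granule genes were among the most abundant transcripts of these progenitors. Per length of transcript (TPM, counts per base of exon, scaled to the same sum in every library), Elane averaged 5429 ± 752 TPM in P95H/+ and 5098 ± 1882 TPM in wild type (SD, n = 3 each), with rank 5 among 25878 genes by its mean over all libraries. Mpo was at 5066 ± 201 TPM in P95H/+ and 4694 ± 841 TPM in wild type, with rank 7. These neighbours in the order did not differ beyond their spread. Prtn3 followed at 2724 ± 484 TPM in P95H/+ and 2246 ± 670 TPM in wild type, and Ctsg at 2546 ± 686 TPM in P95H/+ and 2339 ± 140 TPM in wild type, with ranks 24 and 27 and also within each other's spread. Ms4a3, with 559 ± 141 TPM in P95H/+ and 537 ± 157 TPM in wild type, had rank 220. Fcnb, at 141 ± 60.8 TPM in P95H/+ and 80.0 ± 59.5 TPM in wild type, had rank 1648, and both gaps below Ctsg and below Ms4a3 were larger than the spread. The 6 genes together took 0.967%, 0.859% and 0.966% of the counts in P95H/+ replicates 1, 2 and 3, and 0.684%, 0.795% and 1.18% in the wild-type ones, so that the wild-type libraries lay on both sides of all P95H/+ libraries.

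Secondary granule genes stood below 4 of the 6 members per length. Ltf (lactoferrin) was at 152 ± 206 TPM in P95H/+ and 83.4 ± 67.9 TPM in wild type, and Camp (cathelicidin) at 223.1 ± 214 TPM in P95H/+ and 160 ± 73.8 TPM in wild type. Ngp, another secondary granule gene, reached 529.6 ± 633 TPM in P95H/+ and 295 ± 241.6 TPM in wild type, with rank 331. Elane, Mpo, Prtn3 and Ctsg stood above Ltf, Camp and Ngp in both genotypes. Fcnb had a lower mean than Ltf, Camp and Ngp in both. It was within the spread of Ltf and Ngp in both genotypes and of Camp in P95H/+, so its place among them is not settled. The P95H/+ mean of Ltf rests on replicate 3, at 399 CPM against 32.5 and 34.9 CPM in replicates 1 and 2. Ms4a3 was within the spread of Ngp, so that the 6 members do not share 1 place in this order. Cebpe, a factor of the step to secondary granules, was at 134 ± 67.8 TPM in P95H/+ and 111 ± 45.7 TPM in wild type.

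**Figure D1:**
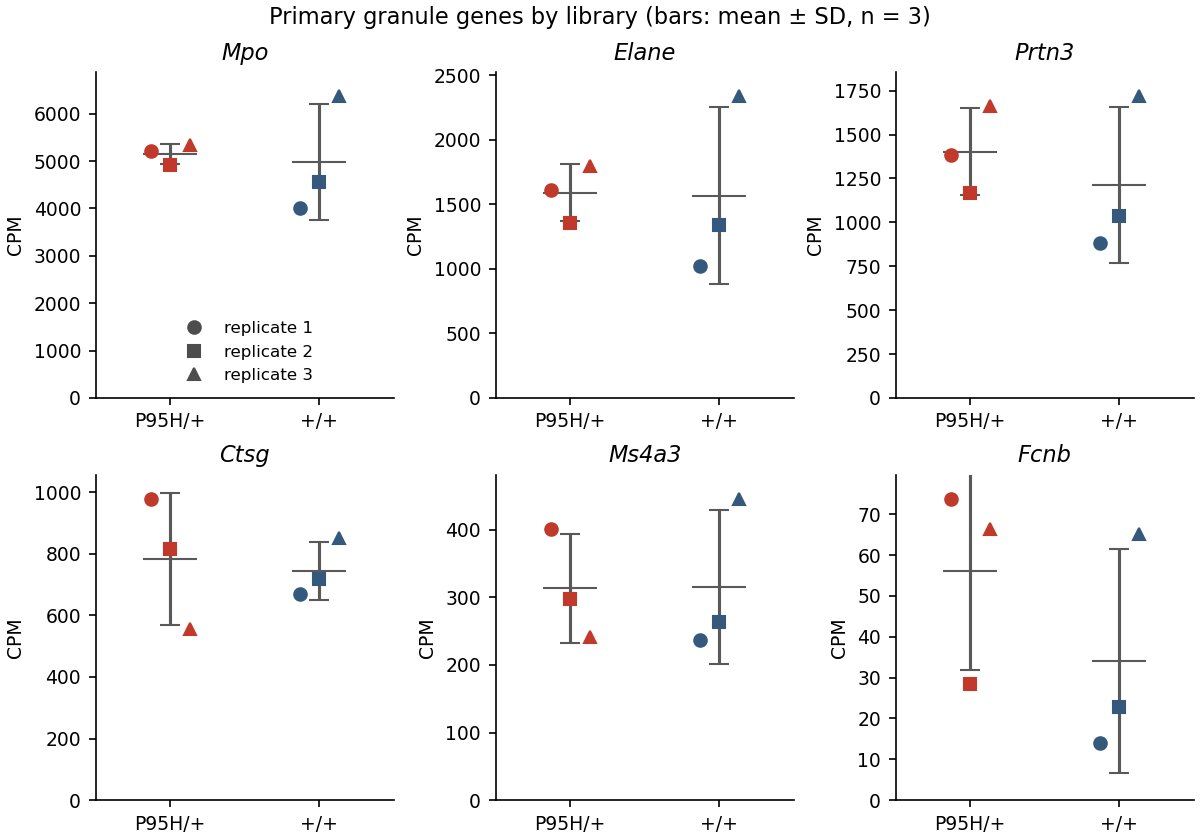
CPM of each of the 6 primary granule genes in every library, P95H/+ (red) left of wild type (+/+, blue), with a marker for each replicate number and bars for the mean ± SD (n = 3). The groups overlapped for all 6 genes, and wild-type replicate 3 was the highest library for Mpo, Elane, Prtn3 and Ms4a3.

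Setting P95H/+ against wild-type cells addresses whether primary granule transcripts change in amount with 1 mutant Srsf2 allele. All 6 members had a positive fitted log2 fold change, from 0.07 for Ms4a3 to 0.82 for Fcnb, and none passed the test. Of 17144 genes tested by quasi-likelihood in edgeR (two-sided, Benjamini-Hochberg adjustment over all of them), 0.0% were called at an adjusted p of 0.05, and 53.1% had a positive value. At an unadjusted p under 0.05 there were 361 genes, 2.11% of those tested, none of them a member. DESeq2 called 8 genes (0.0467%), with 332 (1.94%) under an unadjusted p of 0.05, and limma voom called 0 (0.0%), with 362 (2.11%). No member was called by either, nor by limma voom with sample quality weights, which called 0.566% of genes, or with the replicate number as a block in edgeR, which called 0.00583%. The median over the members was 0.14, against 0.02 over all tested genes. In limma voom with sample quality weights, Ctsg (0.0422) and Fcnb (0.0491) had an unadjusted p under 0.05. So did Fcnb in edgeR with sex as a covariate (0.0454), and Prtn3 (0.0429) and Fcnb (0.0153) in edgeR without wild-type replicate 3. The share of all genes under that unadjusted limit was not counted in these fits.

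Mpo stood at 5216, 4924 and 5338 CPM in P95H/+ replicates 1, 2 and 3, against 4013, 4568 and 6367 CPM in wild-type replicates 1, 2 and 3. The 3 P95H/+ libraries lay close together, with a mean of 5159 ± 213 CPM, inside the wider range of wild type, which had a mean of 4983 ± 1231 CPM (SD, n = 3 each). The log2 fold change was 0.13 (SE 0.22), with an edgeR adjusted p of 1. Gm11505, which overlaps Mpo on the other strand, was at most 2.32 CPM in any library.

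Elane stood at 1613, 1357 and 1798 CPM in P95H/+, against 1024, 1343 and 2337 CPM in wild type. As for Mpo, the lowest and the highest library were both wild type. Its log2 fold change was 0.10 (SE 0.32; edgeR adjusted p of 1). Prtn3, its neighbour on chromosome 10, stood at 1384, 1165 and 1662 CPM in P95H/+, against 882, 1037 and 1717 CPM in wild type. The order of the 6 libraries was the same for Mpo, Elane and Prtn3, with wild-type replicate 3 on top, then P95H/+ replicates 3, 1 and 2, then wild-type replicates 2 and 1. Its log2 fold change was 0.30 (SE 0.30; edgeR adjusted p of 1). Plppr3 overlaps Prtn3 on the other strand and stood at 161 to 275.6 CPM in P95H/+ and 161 to 224.7 CPM in wild type, and its reads could enter the count of Prtn3 if strand was ignored, which the sources used here do not give.

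Ctsg broke this pattern. It stood at 979, 814 and 555 CPM in P95H/+, against 668, 718 and 849.8 CPM in wild type. Here the lowest library was P95H/+ replicate 3 and the highest was P95H/+ replicate 1. The log2 fold change was 0.14 (SE 0.24; edgeR adjusted p of 1). Ms4a3 was similar to Ctsg in P95H/+, at 401, 298 and 241.9 CPM, against 237, 263 and 446 CPM in wild type. Wild-type replicate 3 was again on top, and the log2 fold change was 0.07 (SE 0.30; edgeR adjusted p of 1).

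Fcnb, the least abundant member, varied most. It stood at 73.8, 28.3 and 66.3 CPM in P95H/+, against 14.0, 22.9 and 65.2 CPM in wild type. P95H/+ replicate 2 lay with the low wild-type libraries, and wild-type replicate 3 with the high P95H/+ libraries. The log2 fold change of 0.82 (SE 0.60; edgeR adjusted p of 1) is the largest of the 6 and has the largest error. The fitted biological coefficient of variation, the spread between libraries beyond counting noise, was 0.51 for Fcnb, against 0.24 to 0.30 for the other members and a median of 0.27 over all tested genes. Groups that do not overlap were found for 0 of the 6 members, and for 1.91% of the tested genes with P95H/+ higher. For 1 gene taken alone, the smallest two-sided p that exact permutation of 6 libraries allows is 0.1.

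**Figure D2:**
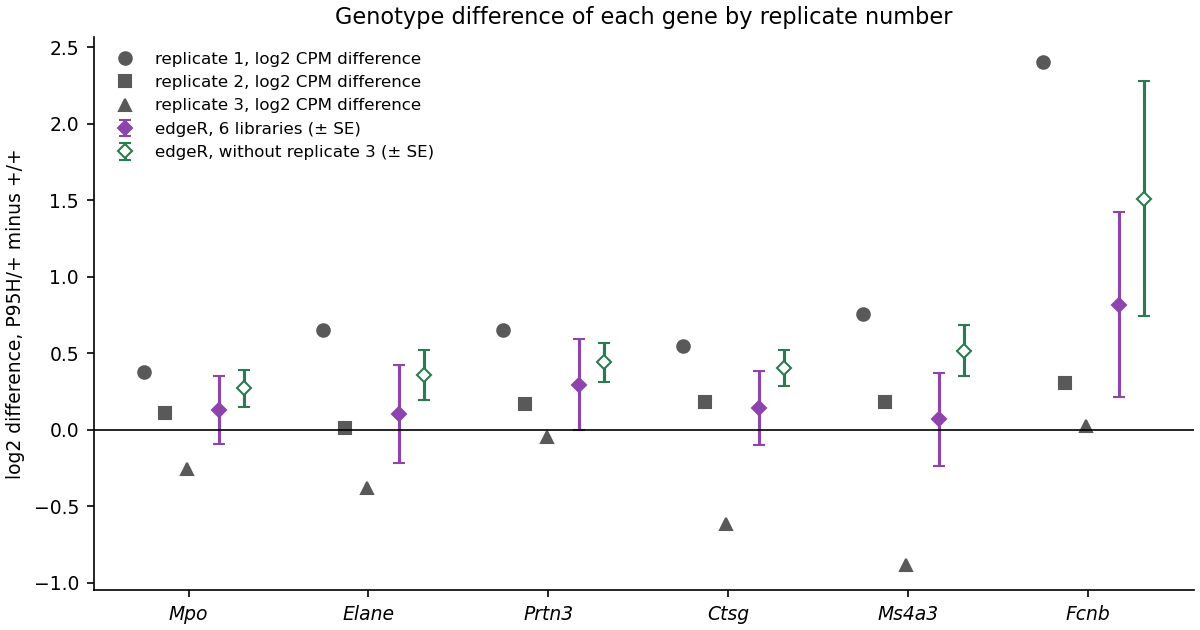
Difference P95H/+ minus wild type of each gene on the log2 scale, between libraries of the same replicate number (grey, log2 CPM), and as fitted by edgeR over 6 libraries (purple) and without replicate 3 of both genotypes (green), each with its SE. All 6 genes are above 0 in replicates 1 and 2, and 5 of 6 are below 0 in replicate 3. Of all tested genes with counts in every library, 40.4%, 50.5% and 42.9% are above 0 in replicates 1, 2 and 3.

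The sign of the difference was shared by all members in replicates 1 and 2 and turned for 5 of 6 in replicate 3. Libraries of the same number are not known to be matched. In deviations from group means across genes, P95H/+ 2 and wild type 1 correlated at 0.463, against 0.372 within number 1 and 0.348 within number 2. Between the replicate 1 libraries all 6 were higher in P95H/+, by a log2 CPM difference of 0.38 for Mpo, 0.66 for Elane, 0.65 for Prtn3, 0.55 for Ctsg, 0.76 for Ms4a3 and 2.40 for Fcnb. The wild-type library of this pair is the one from the mouse of 54 weeks, so that age and genotype cannot be told apart there, and the replicate 2 pair sets a female against a male. Between the replicate 2 libraries all 6 were again higher in P95H/+, by 0.02 (Elane) to 0.31 (Fcnb). Between the replicate 3 libraries 5 of 6 were lower in P95H/+, with differences of -0.05 for Prtn3, -0.25 for Mpo, -0.38 for Elane, -0.61 for Ctsg and -0.88 for Ms4a3, and Fcnb was at 0.02. The medians over the members were 0.65, 0.17 and -0.32 in replicates 1, 2 and 3, against -0.08, 0.00 and -0.09 over the 17043 tested genes with counts in every library. Of those 17043 genes, 40.4%, 50.5% and 42.9% were higher in P95H/+ in replicates 1, 2 and 3. The members vary together across libraries, so their signs are not separate observations.

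Without replicate 3 of both genotypes, the P95H/+ libraries lay above both wild-type libraries for all 6 members. The same was so for 19.9% of the 17371 genes tested in those 4 libraries. The edgeR log2 fold changes were then 0.27 (SE 0.12) for Mpo, 0.36 (SE 0.16) for Elane, 0.44 (SE 0.13) for Prtn3, 0.40 (SE 0.12) for Ctsg, 0.52 (SE 0.17) for Ms4a3 and 1.51 (SE 0.77) for Fcnb. All 6 were above 0, as were 49.6% of all genes. None passed, with edgeR adjusted p between 0.145 (Ctsg) and 0.53 (Fcnb), while 0.829% of all genes were called. At an unadjusted p under 0.05 stood 4 members, Mpo, Prtn3, Ctsg and Ms4a3, all higher in P95H/+, against 6.14% of all genes in that direction. Both P95H/+ libraries of this fit are from females of 32 weeks. The wild-type ones are from a female of 54 weeks and a male of 32 weeks, so genotype cannot be told apart from age and sex here. Leaving out wild-type replicate 3 alone gave a member median of 0.44. Leaving out wild-type replicate 1 alone, the older mouse, gave 0.03, with Mpo at -0.008, Elane at -0.13 and Ms4a3 at -0.10. Without P95H/+ replicate 1, Ctsg was at -0.072 and Ms4a3 at -0.17, without P95H/+ replicate 3 Elane was at -0.019, and without wild-type replicate 2 Ms4a3 was at -0.031.

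The share of Mpo lay in a narrow range. It made up 54.0%, 57.4% and 55.3% of the counts of the 6 genes in P95H/+ replicates 1, 2 and 3, and 58.7%, 57.5% and 54.0% in the wild-type ones. For every 100 Mpo counts there were 30.9, 27.6 and 33.7 Elane counts in P95H/+, against 25.5, 29.4 and 36.7 in wild type. Prtn3 had 26.5, 23.7 and 31.1 in P95H/+, against 21.97, 22.7 and 27.0 in wild type, with groups that overlap. The Ctsg ratio was lowest in the replicate 3 libraries, at 18.8, 16.5 and 10.4 in P95H/+, against 16.7, 15.7 and 13.4 in wild type. That of Fcnb ranged widest, with 1.42, 0.58 and 1.24 in P95H/+, against 0.35, 0.50 and 1.02 in wild type.

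**Figure D3:**
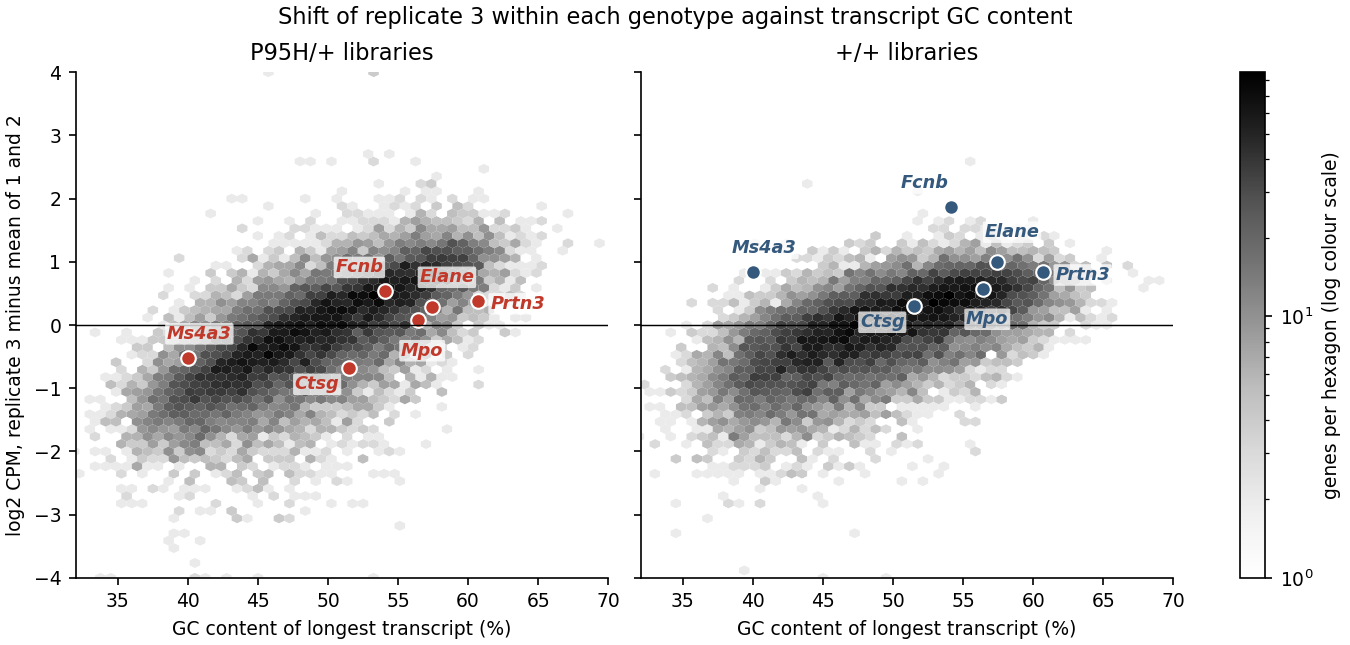
Log2 CPM of replicate 3 minus the mean of replicates 1 and 2, for P95H/+ (left) and wild type (right), against GC content of the longest transcript. Grey hexagons are tested genes with counts in every library and a GC value, and coloured points are the 6 members. Log2 values beyond the vertical axis are drawn at its edge, and GC contents outside the horizontal axis are not shown. In wild type all 6 members lie above 0, while in P95H/+ Ctsg (-0.69) and Ms4a3 (-0.52) lie below it.

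The members differ in GC content, and over all tested genes the shift of the replicate 3 libraries moved with GC content. Prtn3 has a transcript GC content of 60.7%, higher than 97.1% of tested genes, and Elane (57.4%) and Mpo (56.4%) are also in the upper part, with 89.8% and 86.0% of genes below them. Fcnb has 54.1%, Ctsg 51.5% and Ms4a3 39.99%, the last with only 7.68% of genes below it. Within P95H/+, replicate 3 differed from the mean of replicates 1 and 2 by log2 values of 0.39 for Prtn3, 0.28 for Elane, 0.07 for Mpo, 0.54 for Fcnb, -0.69 for Ctsg and -0.52 for Ms4a3. Within wild type the same shifts were all positive, at 0.84 for Prtn3, 1.00 for Elane, 0.57 for Mpo, 1.87 for Fcnb, 0.29 for Ctsg and 0.84 for Ms4a3. Ms4a3 and Prtn3, the members of lowest and highest GC content, both shifted by 0.84 in wild type. Genes of at most 40% GC had a median difference of -0.88 in wild-type replicate 3. The part of GC content in the shifts of the members was not tested.

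After a correction of each library for its GC trend, the P95H/+ shifts of replicate 3 were -0.43 for Prtn3, -0.34 for Elane, -0.47 for Mpo, -0.78 for Ctsg, 0.47 for Ms4a3 and 0.19 for Fcnb. The wild-type shifts stayed positive, from 0.19 for Ctsg to 1.61 for Fcnb. The fitted genotype differences with this correction were 0.14 for Mpo, 0.12 for Elane, 0.29 for Prtn3, 0.17 for Ctsg and 0.86 for Fcnb, while Ms4a3 turned to -0.018, all with an edgeR adjusted p of 1.

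**Figure D4:**
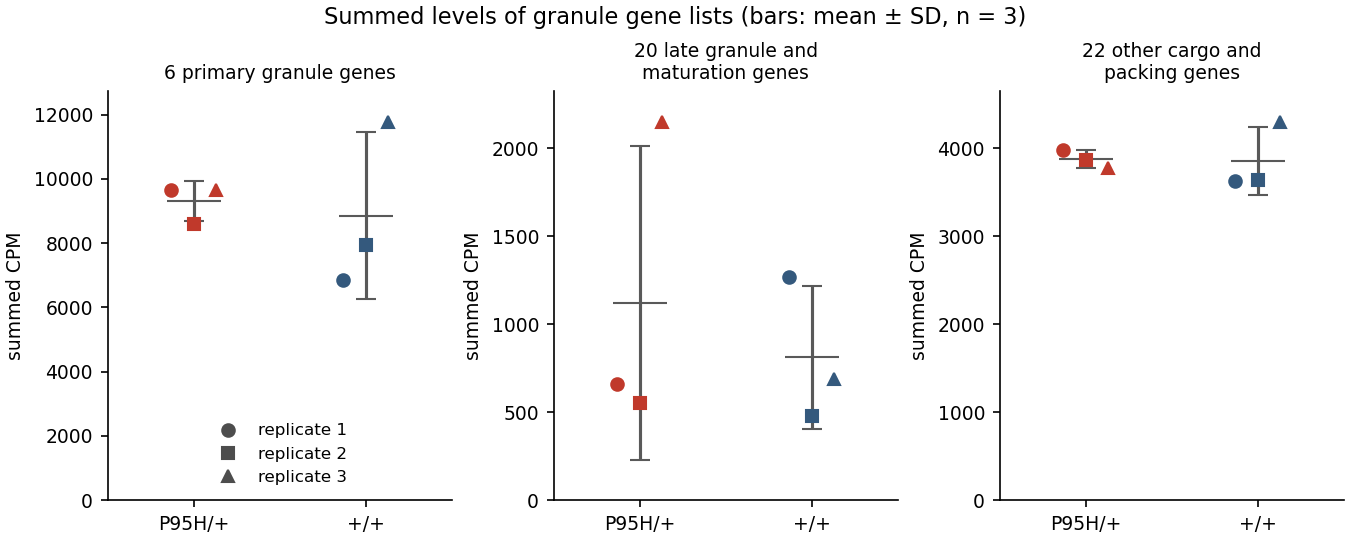
Summed CPM in each library of the 6 primary granule genes, of 20 late granule and maturation genes and of 22 other cargo and packing genes, P95H/+ left of wild type, with the mean ± SD (n = 3). P95H/+ replicate 3 is the highest library for the late list, at 2152 CPM, and lies within the others for the primary granule genes.

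Genes that load, sort and process the granule contents showed no call. Of 22 listed, 20 were tested, 16 with a positive and 4 with a negative log2 fold change, a median of 0.08, and 0 called. Without replicate 3 of both genotypes 15 of 20 were positive, with a median of 0.13 and 0 called. Hexa, a lysosomal hexosaminidase subunit, averaged 179 ± 14.4 CPM over P95H/+ libraries and 167 ± 26.6 CPM over wild-type ones (SD, n = 3 each), with a log2 fold change of 0.17 (SE 0.20; edgeR adjusted p of 1). Vps13b, a factor of Golgi transport whose loss in humans lowers neutrophil numbers, averaged 329 ± 22.7 CPM over P95H/+ libraries and 317 ± 20.7 CPM over wild-type ones, with a log2 fold change of 0.13 (SE 0.17; edgeR adjusted p of 1). The summed level of this list was 3783 to 3988 CPM in P95H/+ and 3634 to 4306 CPM in wild type. Prss57, a serine protease of the same granules whose gene lies on the same chromosome as Elane and Prtn3, stood at 105, 83.7 and 151.5 CPM in P95H/+ and 69.8, 78.0 and 192 CPM in wild type, with the order of libraries that Elane had. It was named after its values were seen.

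Among 15 regulators of granule genes, 12 had a positive and 3 a negative value, the median was 0.16, and 0 were called. Without replicate 3 of both genotypes the median was 0.03, with 10 of 15 positive, and Klf4, a factor of monocyte formation, was called lower in P95H/+ at -0.55 (SE 0.10; edgeR adjusted p of 0.044). Over all 6 libraries Klf4 was at -0.003 (SE 0.35; edgeR adjusted p of 1). Cebpb, a C/EBP factor of emergency granulopoiesis, stood at 27.0, 34.5 and 107 CPM in P95H/+ and 30.6, 34.1 and 33.1 CPM in wild type, and its log2 fold change of 0.87 (SE 0.52) was -0.034 without P95H/+ replicate 3. Csf3r, the receptor of the cytokine G-CSF, averaged 213 ± 78.9 CPM over P95H/+ libraries and 165 ± 42.7 CPM over wild-type ones, with a log2 fold change of 0.46 (SE 0.32) that was 0.085 without P95H/+ replicate 3 and 0.68 without wild-type replicate 3. Gfi1, a repressor needed for neutrophil formation, stood at 128, 86.5 and 145.5 CPM in P95H/+ and 60.5, 69.8 and 151 CPM in wild type, the order of libraries that Mpo, Elane and Prtn3 had. Cebpa, which drives entry into the myeloid lineage, was at 151, 172 and 241.8 CPM in P95H/+ and 155, 167 and 298.5 CPM in wild type. Irf8, which favours monocytes over neutrophils, was at 286, 346 and 366 CPM in P95H/+ and 285, 391 and 347 CPM in wild type. Neither group of either gene was apart from the other.

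The late granule and maturation genes did not follow the primary granule genes across libraries. All 20 listed genes were tested and had a positive value, with a median of 0.55 and 0 called, but 5 of 19 were positive without replicate 3 of both genotypes, with a median of -0.75. Their summed level was 660, 551 and 2152 CPM in P95H/+ replicates 1, 2 and 3, and 1266, 479 and 690 CPM in the wild-type ones. The primary granule genes exceeded them by a ratio of 14.7, 15.6 and 4.49 in P95H/+, and of 5.40, 16.6 and 17.1 in wild type, so that P95H/+ replicate 3 and wild-type replicate 1 stood apart by their low ratio. Cxcr2, a chemokine receptor of mature neutrophils, averaged 16.1 ± 6.01 CPM over P95H/+ libraries and 11.0 ± 3.95 CPM over wild-type ones, which gave 0.62 (SE 0.38) as log2 fold change. This was 0.28 without P95H/+ replicate 3, 0.95 without wild-type replicate 1 and 0.092 without replicate 3 of both genotypes. Mmp25, a membrane metalloprotease of neutrophils, stood at 0.74, 1.28 and 28.0 CPM in P95H/+ and 4.26, 0.95 and 3.98 CPM in wild type. Its log2 fold change of 1.80 (SE 1.31) was -1.53 without P95H/+ replicate 3.

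Markers of other cells in the sort were set beside these values, and their part in the differences was not tested. The list of 10 monocyte markers summed to 1931, 2113 and 1415 CPM in P95H/+ and 1747, 2042 and 1721 CPM in wild type, with 5 of 10 positive. The 11 eosinophil, mast cell and basophil markers found in the table summed to 475.5, 526 and 386 CPM in P95H/+ and 395.5, 332 and 873 CPM in wild type, with 3 of 10 tested positive, and the 13 erythroid markers to 1437, 1087 and 2439 CPM in P95H/+ and 1281, 1503 and 1678 CPM in wild type, with 11 of 13 positive. The 12 stem cell markers summed to 1092, 1345 and 1145 CPM in P95H/+ and 1470, 1319 and 1172 CPM in wild type, with 2 of 12 positive. Among all libraries this sum was lowest in P95H/+ replicate 1, where Ctsg and Fcnb were highest, and highest in wild-type replicate 1, where 5 of the 6 members were lowest. The order was not kept elsewhere. Mpo, Elane, Prtn3 and Ms4a3 were highest in wild-type replicate 3, and Ctsg was lowest in P95H/+ replicate 3, where the sums were 1172 and 1145 CPM. Kit, used in the sort, is part of the sum, at 475.7 CPM in P95H/+ replicate 1. B and T cell markers summed to 160, 146 and 227 CPM in P95H/+ and 184, 158 and 126 CPM in wild type, with 4 of 11 tested positive, and megakaryocyte markers to 172, 231 and 391 CPM in P95H/+ and 253, 172 and 266 CPM in wild type, with 7 of 7 positive. No gene of these lists was called over 6 libraries. Without replicate 3 of both genotypes, where the members had a median of 0.42, the eosinophil, mast cell and basophil markers had a median of 0.65, with 7 of 10 positive and 3 called higher by edgeR. These were Epx, Prg2 at 0.96 (SE 0.09; edgeR adjusted p of 0.00147) and Prg3 at 1.03 (SE 0.17; edgeR adjusted p of 0.0325), all 3 of eosinophil granules. In that fit the erythroid markers had a median of -0.49, and Slc4a1, the anion exchanger of red cells, was called lower at -1.10 (SE 0.12; edgeR adjusted p of 0.00349). Over all 6 libraries Slc4a1 had the other sign, at 0.815 (SE 0.88), with P95H/+ replicate 3 highest at 220 CPM. Prg2 was then at -0.049 (SE 0.51), with wild-type replicate 3 highest at 367.7 CPM, and Prg3 was at 0.122 (SE 0.51).

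Of 11 tested genes next to the members or of the same families, 5 had a positive and 6 a negative log2 fold change, and the median was -0.01. Lpo, lactoperoxidase, whose gene lies 2015 bases from Mpo, was at 11.95, 7.92 and 8.47 CPM in P95H/+ and 8.69, 7.16 and 14.4 CPM in wild type. Epx, the peroxidase of eosinophil granules and a relative of Mpo, was at 96.7, 84.3 and 149.7 CPM in P95H/+ and 39.0, 41.4 and 342.5 CPM in wild type. It was called higher in P95H/+ without replicate 3 of both genotypes, by 1.20 on the log2 scale (SE 0.10; edgeR adjusted p of 0.00128, 2 libraries against 2), and over all 6 libraries its value was -0.25 (SE 0.82) with an adjusted p of 1. Cfd, next to Elane, was at most 1.02 CPM, and Mcpt8, a basophil protease gene next to Ctsg, was at 54.95, 64.7 and 34.5 CPM in P95H/+ and 78.3, 65.3 and 19.1 CPM in wild type. Fcna, the other mouse ficolin gene, was at 0.47 CPM or less in every library.

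The genes most like the members were sought among 8021 others with a mean of at least 20 CPM, by Pearson r over the 6 libraries between log2(CPM + 1) of the gene and the mean of the 6 members, as a description of these libraries. They were Plpp5 (r of 0.988), Bola1 (0.986), Arhgap19 (0.982), Phb (0.981), Mrpl17 (0.981) and Polr2c (0.98). The members themselves had r of 0.95 for Mpo and Fcnb, 0.94 for Elane, 0.92 for Prtn3, 0.82 for Ms4a3 and 0.46 for Ctsg, each being part of the mean. Likeness at this level was not particular to the members, since 28 other genes had an r at least as high as Mpo and 2282 at least as high as Ctsg. The r values include the 2 replicate 3 libraries, which have the GC shift.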

How the data were processed

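Per the labels' protocols, ribosomal RNA was removed from total RNA, and 6 stranded paired-end libraries were sequenced. The submitters' processing notes name the build mm10, STAR 2.5.3a, Subread 1.5.1 with featureCounts, Picard 1.96, Trim Galore, cutadapt, limma and edgeR. Their roles and the strand setting of the counting are not given in the sources used here. Results start from the deposited raw counts. The authors' deposited CPM were used as a check and equalled count over library total within 0.0005. A filtered CPM table (6 columns) was not used.

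Of 87 blank or date-like symbols, 44 were replaced from GENCODE M21, which holds 25878 of the 26027 identifiers and gave coordinates, exon lengths and transcript GC content. Promoter sequences are RefSeq's on GRCm38.p6. The genotype test was run in edgeR 4.0.16 under R 4.3.3 (TMM, filterByExpr, robust quasi-likelihood fit, two-sided F test, Benjamini-Hochberg over all tested genes, threshold 0.05). The SE follows from the F statistic. Other settings used DESeq2 1.42.0 and limma 3.58.1, other scalings, no filter, sex as a covariate, libraries left out, and a GC correction (an offset from a spline of 4 degrees of freedom on GC content, fitted for each library). The fit and the correction were run on simulated counts as a check of the code. For the correction both replicate 3 libraries were given the same linear GC trend, while their shifts in the data are unequal.

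Replicate numbers are shared by the genotypes in the labels. Deviations from group means correlated across genes at 0.372, 0.348 and 0.613 for numbers 1, 2 and 3, each above 0.1, so a fit with the number as a block was made. Libraries of different numbers correlated as well, P95H/+ 2 with wild type 1 at 0.463 and P95H/+ 1 with wild type 2 at 0.386, and both replicate 3 libraries have the GC shift.

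The members and lists were chosen with earlier results of these data known. Named genes are all members, the 2 list genes with the smallest p of each pathway list (none passed), neighbours, genes that place the stage, and the 6 genes most like the members. Lists of other cells and of neighbours are given by counts and sums. Epx, Prss57, Klf4, Prg2, Prg3 and Slc4a1 were named after their values were seen. Cd3e, Lck, Cd79b and Igkc were named outside the rule above.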

Additional observations from a re-analysis of the deposited data

How the results depend on the processing

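None of the 6 members was called in any of the 17 alternatives, and the smallest adjusted p of a member was 0.145. Of 102 member values under these alternatives 93 were above 0 and 9 below, and all 6 members were above 0 in 12 of 18 settings, the reported one included. The settings refit the same libraries and the members vary together, so these values are not separate observations. In the reported fit 53.1% of all tested genes were above 0. The member median ranged from 0.03 to 0.44 when 1 library was left out and was 0.42 without replicate 3 of both genotypes, 0.31 with sample quality weights in limma voom, 0.29 with sex in the model and 0.06 with library totals alone. Ms4a3 turned to -0.008 with library totals alone and to -0.018 with the GC correction. With 1 library left out, Mpo ranged from -0.008 to 0.33, Elane from -0.13 to 0.49, Ctsg from -0.072 to 0.32 and Ms4a3 from -0.17 to 0.39. Over the same fits Prtn3 ranged from 0.11 to 0.62 and Fcnb from 0.44 to 1.68, without a change of sign. Cebpb ranged from -0.034 to 1.187 and Mmp25 from -1.53 to 2.337. In these fits Csf3r ranged from 0.085 to 0.68, Cxcr2 from 0.28 to 0.95, Hexa from 0.08 to 0.29 and Vps13b from 0.08 to 0.18. The alternatives for these 6 genes were chosen after seeing the data. Cebpb was -0.045 without replicate 3 of both genotypes. Mmp25 was -1.335 there and -0.48 with sample quality weights.

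The count of called genes, 0 as reported, was 8 with DESeq2, 97 with sample quality weights (20 higher, 77 lower) and 144 without replicate 3 of both genotypes (32 higher, 112 lower). It was 0 to 1 with 1 library left out, 1 with the replicate block and 1 with the replicate block and GC correction together. The block changed the call of no member, with Mpo at 0.15, Elane at 0.17, Prtn3 at 0.33, Ctsg at 0.12, Ms4a3 at 0.10 and Fcnb at 0.95. The causes of these changes were not tested.

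The GC shift of both replicate 3 libraries, the low total of the P95H/+ one, the single mouse of 54 weeks and the unequal sexes limit the comparison, and 2 libraries against 2 rest on few degrees of freedom.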
